A study of Mus musculus with 22 samples.

Results

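H2AK119ub1, histone H2A with a single ubiquitin on a lysine of its C-terminal tail, was mapped by ChIP-seq in small intestinal crypts of the AhCre mouse line, in Pcgf6 knockout (KO) and in wild-type (WT) crypts. The values are the 2 deposited peak lists, 16039 peaks in KO and 13175 in WT, together 29214 of the 190797 peaks in the 16 lists of the series. A KO peak was called kept when it overlapped a WT peak by 1 bp or more and new when it did not. A WT peak was kept or lost by the same rule, and the comparison was repeated after peaks within 2 kb of each other had been merged into domains. These words name the status of a peak in 2 lists and are not the outcome of a test, because each genotype had 1 library and no replicate error can be given.

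Both groups were C57BL/6 crypt epithelium, cross-linked for 15 min in 1% formaldehyde and sheared to about 500 bp. The KO group is labelled AhCre PCGF6 KO and the WT group AhCre WT, and each chromatin carried 5% of Drosophila S2 chromatin as a spike. AhCre is a Cre recombinase under a Cyp1a1 promoter fragment that beta-naphthoflavone (BNF) switches on, so a KO crypt here is one in which Pcgf6 was deleted in the adult. The design text names male mice of 8 to 12 weeks, taken 7 days after BNF, but it does so for crypts used for RNA. For the ChIP crypts the sex, the interval after BNF, whether WT mice carried the Cre and how many mice were pooled are not stated. The lists are not scaled by the spike and hold no read counts, so the sequencing depth is unknown and a change of the mark over the whole genome cannot be seen in them. Crypt preparations also hold other cells, and a mark held by fewer cells cannot be told apart from less of it per cell.

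Polycomb repressive complex 1 (PRC1) places H2AK119ub1 through its ubiquitin ligases RING1A and RING1B, and the mark goes with silenced developmental genes. PRC1 comes in several forms that differ in their PCGF subunit. PCGF6 defines the variant PRC1.6, which binds E-box and E2F sites through MGA/MAX and E2F6 and is best known for silencing germline genes in embryonic stem cells (ESC). In female mammals the mark also coats the inactive X chromosome.

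The promoters shown here are those that a peak of a single genotype covered. They were taken, 2 for each set, from the genes with the highest scores on the autosomes with a new KO peak, on chromosome X with a new KO peak, and on the autosomes with a lost WT peak, where the strongest peak of the gene covered the window. Each window runs from 250 bases before to 50 bases after the annotated start (RefSeq, GRCm38.p6), reads 5′ to 3′ on the strand of the gene, and has its CpG dinucleotides in capitals. The score of a peak is the −log10 p or q value of the authors' peak caller, and every deposited peak has a score of 10 or more. Slc34a2, a sodium-phosphate cotransporter gene, lies at chr5:53049103-53049402 (plus strand), holds 30 CpG and was under a KO peak of score 26.1. Kank4, a gene of the KANK adaptor family, lies at chr4:98817488-98817787 (minus strand), holds 38 CpG and was under a KO peak of score 25.1.
Slc34a2: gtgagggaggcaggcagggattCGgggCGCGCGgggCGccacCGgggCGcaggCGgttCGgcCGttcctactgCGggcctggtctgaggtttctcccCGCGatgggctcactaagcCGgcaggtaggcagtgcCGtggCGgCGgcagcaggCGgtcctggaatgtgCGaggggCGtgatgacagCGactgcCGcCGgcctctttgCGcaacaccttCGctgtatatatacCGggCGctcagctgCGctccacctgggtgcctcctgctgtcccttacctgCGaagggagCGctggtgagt
Kank4: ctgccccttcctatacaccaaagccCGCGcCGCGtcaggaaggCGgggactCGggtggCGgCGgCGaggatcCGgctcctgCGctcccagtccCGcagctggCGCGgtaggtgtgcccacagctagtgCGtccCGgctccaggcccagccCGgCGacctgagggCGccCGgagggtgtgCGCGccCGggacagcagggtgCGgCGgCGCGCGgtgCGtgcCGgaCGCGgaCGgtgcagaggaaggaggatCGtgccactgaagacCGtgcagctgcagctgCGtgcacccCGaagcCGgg
On chromosome X, Magee1 of the MAGE family at chrX:105120128-105120427 (plus strand) was under a KO peak of score 36.1, and Apln, the gene of the peptide hormone apelin, at chrX:48034804-48035103 (minus strand) under one of score 30. Their windows hold 14 and 15 CpG.
Magee1: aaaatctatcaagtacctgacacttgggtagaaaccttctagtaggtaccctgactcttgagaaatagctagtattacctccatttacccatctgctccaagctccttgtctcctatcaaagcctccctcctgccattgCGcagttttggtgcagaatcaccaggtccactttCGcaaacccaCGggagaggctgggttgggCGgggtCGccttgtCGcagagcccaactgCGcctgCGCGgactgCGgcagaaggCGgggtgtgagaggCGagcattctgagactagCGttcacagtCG
Apln: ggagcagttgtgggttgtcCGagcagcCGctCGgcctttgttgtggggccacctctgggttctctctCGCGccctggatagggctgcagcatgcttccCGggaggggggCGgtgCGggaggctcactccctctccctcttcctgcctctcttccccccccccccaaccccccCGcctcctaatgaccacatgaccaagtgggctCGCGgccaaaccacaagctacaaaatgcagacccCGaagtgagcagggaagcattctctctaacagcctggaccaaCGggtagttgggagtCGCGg
Of the WT-only promoters, Ddx43 at chr9:78395527-78395826 (plus strand) codes for a DEAD-box helicase of the germline and was under a WT peak of score 23.2. Ethe1 at chr7:24587293-24587592 (plus strand) codes for a mitochondrial sulfur dioxygenase and was under a WT peak of score 17.4. Their windows hold 30 and 17 CpG.
Ddx43: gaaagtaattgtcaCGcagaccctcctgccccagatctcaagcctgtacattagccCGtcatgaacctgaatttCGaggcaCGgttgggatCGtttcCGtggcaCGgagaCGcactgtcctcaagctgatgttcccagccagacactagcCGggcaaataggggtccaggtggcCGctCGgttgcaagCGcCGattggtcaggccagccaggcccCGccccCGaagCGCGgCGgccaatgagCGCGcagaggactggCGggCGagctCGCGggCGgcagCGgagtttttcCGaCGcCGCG
Ethe1: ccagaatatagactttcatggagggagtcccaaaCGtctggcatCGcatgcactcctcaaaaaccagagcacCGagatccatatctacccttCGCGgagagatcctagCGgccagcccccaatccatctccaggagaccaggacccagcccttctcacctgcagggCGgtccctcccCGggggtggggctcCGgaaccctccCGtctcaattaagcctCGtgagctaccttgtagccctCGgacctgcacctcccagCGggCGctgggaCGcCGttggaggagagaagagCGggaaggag

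Chromosome X stood apart from all other chromosomes, and most of the difference in list length lay there. KO had 1950 peaks on X, which is 12.2% of its list (exact Clopper-Pearson 95% interval 11.7 to 12.7%), and WT had 29, which is 0.220% of its list (0.147 to 0.316%). The ratio of KO to WT peak number was 67.2 on X. Over the 19 autosomes it ran from 0.971 on chromosome 6 to 1.17 on chromosome 13, with a median of 1.08. The autosomes held 14089 KO peaks and 13146 WT peaks, a ratio of 1.07, against 1.22 for the whole lists. All intervals given here cover counting error only, and neighbouring peaks of 1 library are not independent.

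**Figure D1:**
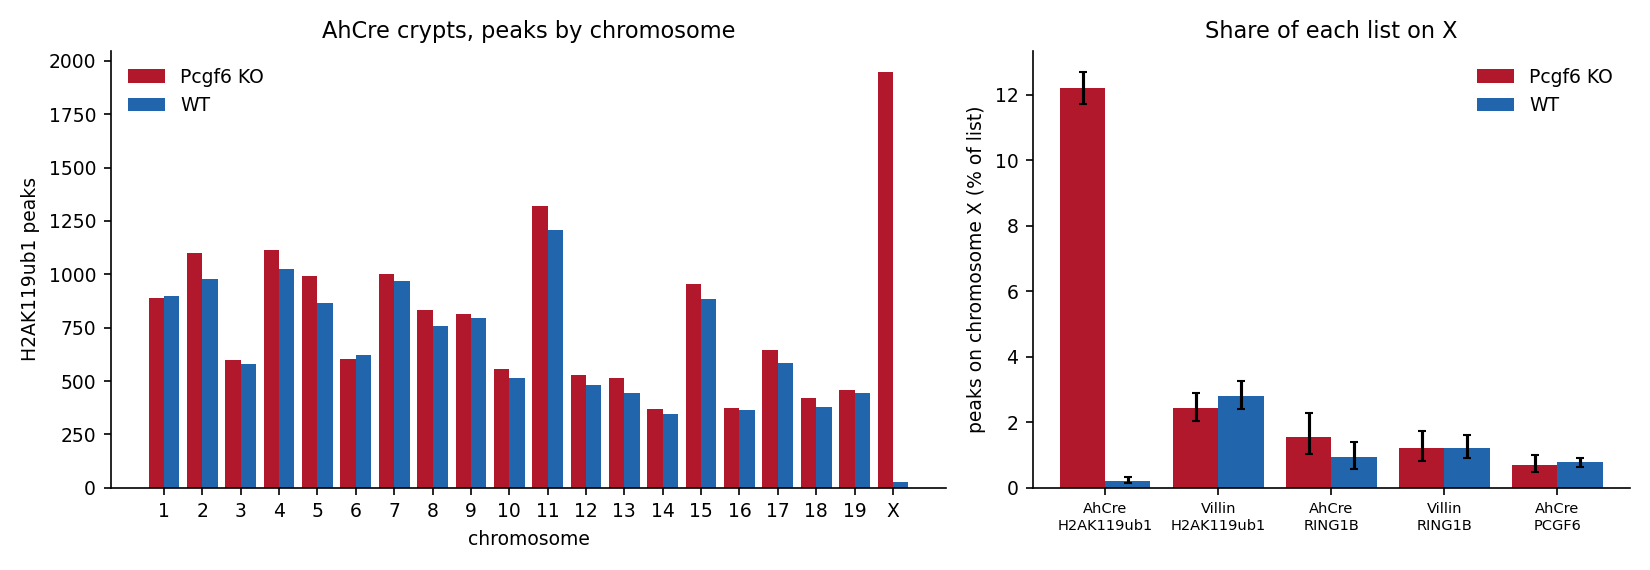
The left panel gives the number of H2AK119ub1 peaks (y axis) on each chromosome (x axis) in AhCre crypts, Pcgf6 KO in red and WT in blue. The right panel gives the share of each peak list that lies on chromosome X, with exact 95% intervals of counting error, for 5 pairs of lists: the AhCre H2AK119ub1 pair differs, 12.2% in KO and 0.220% in WT.

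None of the 4 other pairs of lists compared had such a gap. In the Villin-Cre line, 2.44% of the KO H2AK119ub1 list (134 peaks) and 2.81% of the WT list (175 peaks) lay on X. RING1B of the AhCre line had 26 KO and 22 WT peaks on X, and PCGF6 had 34 KO and 133 WT peaks. RING1B of the Villin-Cre line had 30 KO and 54 WT peaks. The X peaks of the Villin-Cre crypts of both genotypes lay where the AhCre KO crypts had theirs: AhCre KO peaks overlapped 88.8% of the 134 Villin KO peaks and 88.6% of the 175 Villin WT peaks, while AhCre WT peaks overlapped 10.4 and 9.14%. On the autosomes the AhCre KO and WT lists covered like shares, 93.0 and 90.9% of the Villin KO peaks and 90.3 and 87.1% of the Villin WT peaks. A longer list meets more peaks, and on X the AhCre KO list covered 3.22 Mb and the AhCre WT list 0.0397 Mb. Neither AhCre H2AK119ub1 list had a peak on chromosome Y, and the AhCre PCGF6 lists had 0 in KO and 1 in WT. Whether genotype or another difference between these 2 libraries, the sex of the mice included, goes with the X peaks cannot be told apart with 1 library a side. Most peak results below are therefore given for the autosomes, and for X where stated. The numbers of marked genes in the gene lists include members on X.

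The KO peaks on X were dense in a few stretches. Of 171 windows of 1 Mb, 74 held a KO peak and 16 a WT peak. The densest window, 103 to 104 Mb, held 143 KO peaks. It contains Cdx4, a caudal homeobox gene (17.0), Chic1 (21.4) and Tsx (21.4), all marked in KO alone, and the X-inactivation centre, from which a female cell silences an X chromosome, is known to lie there. The 10 densest windows together held 936 KO peaks, 48.0% of those on X.

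Of the 29 WT peaks on X, 26 met a KO peak, and 3 were lost. In 24 cases a KO and a WT peak overlapped only each other, and in all 24 the KO score was the higher, with a median of 21.4 in KO and 13.6 in WT. The median KO peak of these pairs was 3371 bp wide and the median WT peak 1071 bp. The genes marked in both lists on X included Sh3kbp1 (29.0 in KO, 17.4 in WT), Nhs (26.1, 14.7), L1cam (28.0, 10.6), Cxcr3 (23.2, 12.2), Mamld1 (20.5, 14.7), Acsl4 (18.7, 14.7), Bcor (19.6, 11.4) and Cldn2 (16.5, 10.6). Bcor codes for a subunit of another variant PRC1. At L1cam the strongest KO peak (28.0) did not overlap the WT peak, which met another KO peak. The lost X peaks were at Usp27x (10.9) and Pcsk1n (10.6, with another peak inside the gene), both near the lowest score that the lists hold.

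On the autosomes, similar shares of each list had no partner in the other: 4704 of 14089 KO peaks were new (33.4%, 32.6 to 34.2%) and 4058 of 13146 WT peaks were lost (30.9%, 30.1 to 31.7%). With X included the new share was 41.3% and the lost share 30.8%. Merging within 2 kb left these shares in place, with 3118 of 9312 autosomal KO domains new (33.5%) and 2758 of 8924 WT domains lost (30.9%). On X 1311 of 1329 KO domains were new and 2 of 24 WT domains lost. A smaller set of autosomal domains was cut differently in the lists: 240 KO domains met 2 or more WT domains, and 243 WT domains met 2 or more KO domains. By autosome, the new share ran from 28.8% on chromosome 3 to 41.6% on chromosome 13, and the lost share from 25.8% on chromosome 2 to 37.0% on chromosome 1.

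By length the 2 autosomal lists were nearly equal. KO peaks covered 28.2 Mb and WT peaks 27.9 Mb, a ratio of 1.01, and it was 1.12 with X. They shared 19.9 Mb, which is 70.4% of the KO and 71.1% of the WT length. KO alone covered 8.35 Mb, of which 4.78 Mb lay in new peaks and 3.57 Mb was the extra reach of kept peaks. WT alone covered 8.06 Mb, of which 4.32 Mb lay in lost peaks and 3.74 Mb at the edges of kept ones.

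Unmatched peaks were narrow and weak in both directions. The median new autosomal peak was 835 bp wide with a score of 12.0, and the median kept KO peak 1751 bp with a score of 16.3. In WT the median lost peak was 872 bp wide with a score of 11.6, and the median kept peak 1820 bp with a score of 15.7. The new share of KO peaks was 59.5% at scores of 10 to 12, 43.0% at 12 to 15, 20% at 15 to 20, 4.42% at 20 to 30 and 0.335% at 30 or more. The lost share of WT peaks over the same classes was 56.5, 36.0, 15.2, 2.91 and 0.108%. In each score class the new share of KO peaks was thus the larger, but the score classes are not matched between libraries of unknown depth. With the autosomal lists cut to equal length, 4090 KO peaks were new (31.1%) and 4325 WT peaks lost (32.9%), so the order of the overall shares depended on list length. No peak of 10 kb or more was unmatched, 0 of 189 in KO (upper bound 1.93%) and 0 of 208 in WT (1.76%). On X, 71 of 82 KO peaks with scores of 20 to 30 were new (86.6%).

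**Figure D2:**
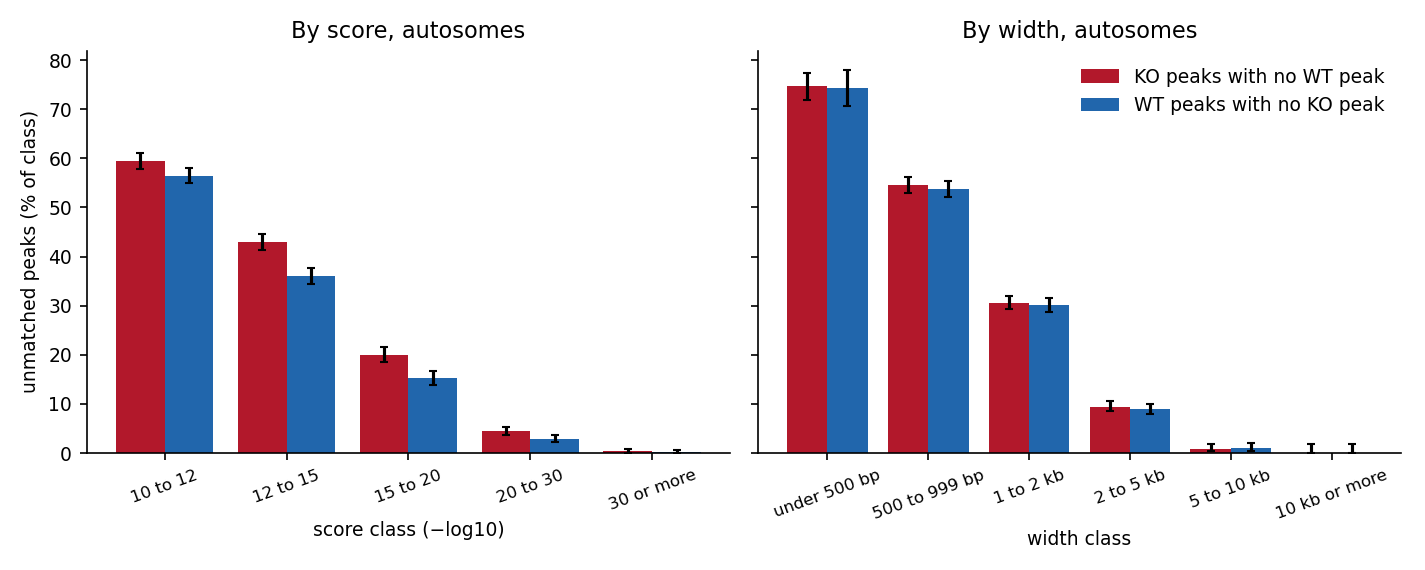
Share of autosomal KO peaks without a WT peak (red) and of autosomal WT peaks without a KO peak (blue), by class of score (left) and of width (right), with exact 95% intervals of counting error. In both lists the share drops with score and width, to 0.335% of KO peaks and 0.108% of WT peaks at scores of 30 or more.

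Many unmatched peaks lay near the mark of the other genotype. The nearest WT peak was at a median of 5791 bp from an autosomal new peak, and 31.6% had one within 2 kb. For lost peaks the nearest KO peak was at a median of 5635 bp, and 31.5% had one within 2 kb. New peaks on X were far from any WT peak, at a median of 1025408 bp.

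Where peaks could be paired, the KO and WT medians were close. The 7087 autosomal pairs in which a KO and a WT peak overlapped only each other had median scores of 16.2 in KO and 15.6 in WT. The KO score was the higher in 4038 pairs (57.0%), and the difference, KO minus WT, had a median of 0.701 and quartiles of −2.14 and 4.11. The median ratio of widths, KO over WT, was 1.01, with quartiles of 0.798 and 1.25. The KO peak was over 1.5 times wider in 14.7% of pairs and the WT peak in 15.8%. Pairs at a WT RING1B peak had a median score difference of 2.35, with KO the higher in 64.5%, and the other pairs 0.535 and 55.5%. The RING1B pairs were also stronger, with median scores of 24.2 in KO and 22.2 in WT, against 15.3 and 14.7. The part of peak strength was not tested. Pairs at a WT PCGF6 peak had 0.744 and 56.4%, and those without one 0.698 and 57.1%. Across all 7087 pairs Spearman's rho was 0.614 for scores and 0.702 for widths. That is a description of peaks that share 2 libraries and 1 caller. Scores depend on the depth of a library, which is unknown, so a higher score is not a measured difference in the mark.

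**Figure D3:**
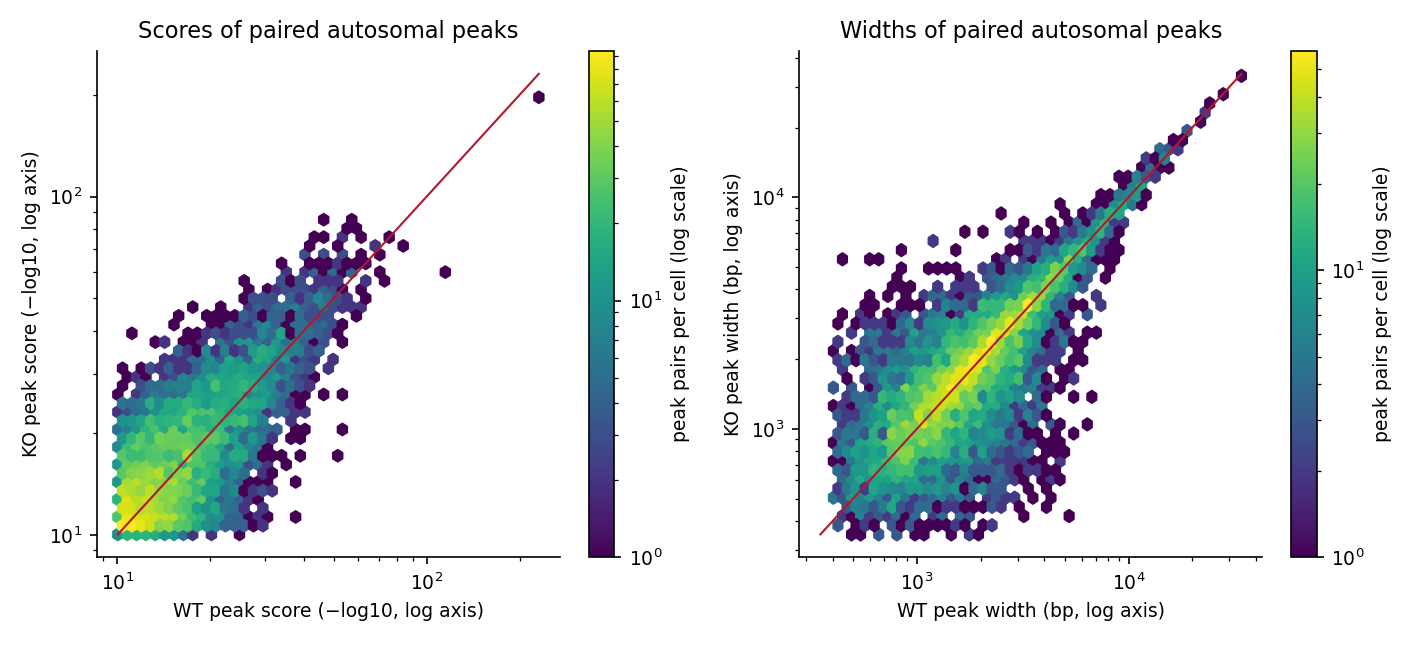
Hexagons count the 7087 autosomal pairs of overlapping peaks by KO value (y axis) and WT value (x axis), for scores at left and widths at right, on log axes, with the red line where both are equal. The pairs lie along the line, with median scores of 16.2 in KO and 15.6 in WT.

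Several of the widest domains were alike in both lists. The Hoxa cluster on chromosome 6, genes that set position along the body axis, formed the widest domain in both lists, 130 kb in KO (52149588 to 52279169, score 100) and 129 kb in WT (52149183 to 52278510, score 84.6). The Hoxc cluster on chromosome 15 was 104 kb in KO, where WT had 4 domains of 93.7 kb in all. A domain on chromosome 7 over Fgf21, Fut1, Izumo1, Rasip1, Mamstr, Fut2, Sec1 and Ntn5 measured 100 kb in KO and 103 kb in WT, and that over Kirrel3, an adhesion molecule gene on chromosome 9, measured 82.8 kb in 2 KO domains and 82.2 kb in WT. On chromosome 11 a pair of neighbouring WT domains was broken up in KO. The first, over Lypd8, 1810065E05Rik, Gm12253, Lypd9 and the olfactory receptor gene Olfr30, was present as 9 KO domains of 64.7 kb in all (highest score 24.9), against 96.2 kb in WT (42.2). The second, over Olfr224, Olfr325, Olfr324, 2210407C18Rik, Olfr323 and Trim58, was present as 7 KO domains of 53.9 kb (35.1), against 82.3 kb in WT (46.8). Lypd8 codes for a colonic antibacterial surface protein. The widest domains with no WT peak at all were on X, 88.7 kb over the ubiquitin ligase gene Pja1 and 83.3 kb beside Efnb1, an ephrin ligand gene.

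New and lost peaks lay less at gene starts than kept ones. An annotated start was within 1 kb of 17.4% of autosomal new peaks (16.3 to 18.5%) and 31.1% of kept KO peaks (30.1 to 32.0%). In WT it was within 1 kb of 13.8% of lost and 31.6% of kept peaks. Peaks inside a gene and away from its ends made up 35.2% of new and 26.2% of kept KO peaks, and 36.2% of lost and 26.2% of kept WT peaks. Sites over 10 kb from any gene made up 26.4% of new KO peaks and 1794 of 9385 kept ones, and 29.5% of lost and 18.6% of kept WT peaks. On X the new peaks had a start in 10.1% of cases and lay over 10 kb from a gene in 35.9%. The strongest autosomal new peak outside genes lay on chromosome 18 (60253367 to 60255179, score 38.2) and was nearest to Gm4951. The next ones were nearest to Golga4 (32.3), Tmem267 (27.1), BC107364 (26.1) and Pik3ap1 (23.2). The strongest lost peak outside genes lay on chromosome 6 (52482375 to 52483953, score 31.4) and was nearest to Hibadh. It was followed by those nearest to Klf7 (28.3), Tas2r134 (26.2), Wnt1 (26.2) and Arhgap25 (24.2). The peak near Wnt1 ended 586 bp from a KO peak. On X the strongest new peaks outside genes were one of 10818 bp nearest to Efnb1 (31.0) and those nearest to Tsx (28.0), Tmem28 (28.0), Pja1 (28.0) and Dmrtc1c1 (27.0).

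Peaks of RING1B, the ligase subunit, lay under few of the unmatched peaks. KO RING1B peaks overlapped 2.36% of autosomal new peaks, 12.6% of kept KO peaks, 1.16% of lost peaks and 12.8% of kept WT peaks, each by 1 bp or more. WT RING1B peaks overlapped 3.57, 17.1, 2.98 and 17.4% of the same classes. Kept peaks were stronger and wider than unmatched ones, as given above. At WT scores of 12 to 15, WT RING1B peaks overlapped 3.66% of 1338 lost peaks and 9.22% of 2374 kept ones, and the part of width was not tested. On X, WT RING1B peaks overlapped 10 of 1925 new peaks (0.519%) and 10 of 25 kept KO peaks.

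PCGF6, the deleted subunit, had 4779 peaks in KO and 17163 in WT. KO PCGF6 peaks overlapped 1.70% of autosomal new peaks, 3.24% of kept KO peaks, 2.64% of lost peaks and 3.40% of kept WT peaks. WT PCGF6 peaks overlapped 9.61% of autosomal new peaks, 20.6% of kept KO peaks, 11.6% of lost peaks (10.7 to 12.7%) and 20.9% of kept WT peaks. The share lost was lower with PCGF6 than without it where RING1B was absent, and higher where RING1B was present. Of WT peaks with PCGF6 and no RING1B, 399 of 1633 were lost (24.4%, 22.4 to 26.6%), and of those with neither 3538 of 9811 (36.1%, 35.1 to 37.0%). With both proteins, 73 of 737 were lost (9.91%, 7.84 to 12.3%), and with RING1B alone 48 of 965 (4.97%, 3.69 to 6.54%). The same split of KO peaks gave new shares of 23.7, 38.9, 8.31 and 10.3%. The median WT score of these 4 classes was 15.1, 13.0, 21.6 and 22.7, and the part of peak strength in the shares was not tested beyond the score classes. In the score class of 12 to 15, a WT PCGF6 peak lay under 12.5% of lost and 16.0% of kept WT peaks. At 15 to 20 it lay under 18.7 and 21.2%. WT peaks at RING1B sites that KO lacked were lost in 84 of 597 cases (14.1%), and those at RING1B sites present in both genotypes in 37 of 1105 (3.35%). KO peaks at the same 2 kinds of site were new in 81 of 613 (13.2%) and 87 of 1159 cases (7.51%). The WT peaks of these classes had median scores of 18.4 and 24.6 and median widths of 1848 and 2987 bp, and the part of both was not tested. WT peaks at PCGF6 sites absent from KO were lost in 366 of 1958 cases (18.7%, 17.0 to 20.5%), and at PCGF6 sites still listed in KO in 106 of 412 (25.7%, 21.6 to 30.2%). KO peaks there were new in 374 of 2006 (18.6%) and 78 of 378 cases (20.6%).

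Kept peaks met other lists in larger shares than new or lost peaks did. They were also wider and stronger, as given above, and the part of width and score was not tested. H2AK119ub1 peaks of Villin KO crypts overlapped 5.29% of autosomal new peaks and 40.3% of kept KO peaks, and 3.50% of lost and 41.5% of kept WT peaks. For Villin WT crypts these shares were 8.06, 46.0, 4.81 and 47.3%. RING1B peaks of ESC overlapped 11.2% of new, 30.1% of kept KO, 6.46% of lost and 30.7% of kept WT peaks. For each of these 3 lists the share was larger among new than among lost peaks. On X, Villin WT H2AK119ub1 peaks overlapped 6.13% of the new peaks.

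**Figure D4:**
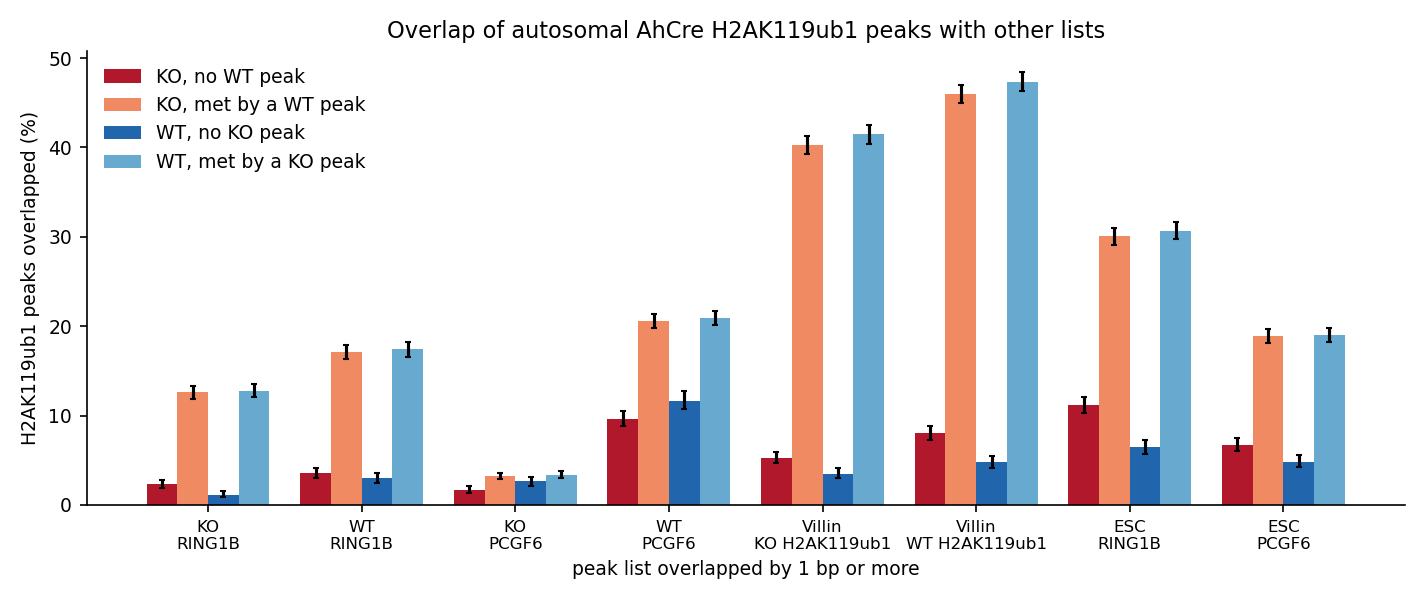
Bars give the share of autosomal AhCre H2AK119ub1 peaks that another list overlaps by 1 bp or more, for KO peaks without and with a WT partner (dark and light red) and WT peaks without and with a KO partner (dark and light blue), with exact 95% intervals of counting error. Kept peaks, which were also wider, exceed new and lost peaks for all 8 lists. With Villin WT H2AK119ub1, for example, the shares are 8.06% of new and 46.0% of kept KO peaks. They are 4.81% of lost and 47.3% of kept WT peaks.

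At genes, a protein-coding gene was called marked when its start or its end had a peak no more than 1 kb away, gained when KO peaks lay there and none of them overlapped a WT peak, and lost in the opposite case. Of 20665 autosomal genes, 3692 were marked in KO and 3500 in WT, and 2992 in both. Losses numbered 449, which is 12.8% of the genes with a WT peak, and gains 612, which is 3.57% of the 17165 genes without one. At 88 further genes a peak shared by both lists reached the gene end in KO alone, and at 59 in WT alone. On X, 182 of 966 genes were marked in KO and 11 in WT. There 171 genes gained the mark, 17.9% of the 955 without a WT peak, and 2 lost it. Most gains and losses rested on weak peaks: with KO peaks under a score of 15 set aside, 182 genes gained the mark in place of 783, X included, and with WT peaks under 15 set aside, 63 lost it in place of 451. Of the autosomal genes, 27.6% of the gained ones had a WT peak within 10 kb of the new one, and 31.4% of the lost ones a KO peak within 10 kb.

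The strongest losses were at Ddx43 (WT score 23.2), the laminin gamma chain gene Lamc1 (21.2), the zinc finger factor gene Rreb1 (21.2), Cdc20, which activates the anaphase-promoting complex (20.3), Rph3al, an effector of exocytosis (19.9), Zswim6 (19.3), Zmym5 (18.7), Brd3os (18.5), Ahrr, the repressor of the aryl hydrocarbon receptor (18.4), and Sh2d4a (17.9). None had a KO peak at either end, and the nearest one was 180523 bp away for Ddx43, 10683 bp for Lamc1 and 6267 bp for Zmym5. KO PCGF6 peaks lay at the ends of 5 of these 10 genes, Ddx43, Cdc20, Rph3al, Zswim6 and Sh2d4a, and WT PCGF6 peaks at the same 5 and at Lamc1. Over all 449 autosomal genes that lost the mark, 18.5% had a KO and 53.2% a WT PCGF6 peak at an end, against 14.4 and 41.8% of all autosomal genes. A Villin-Cre H2AK119ub1 peak was present at Rreb1, in both genotypes, and at none of the other 9.

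Among autosomal gains the highest KO scores were at Dlx5, a homeobox gene of the skeleton and forebrain (28.0), the tubulin-polymerising factor gene Tppp (26.8), Slc34a2 (26.1), Kank4 (25.1), Tcf15, a bHLH factor gene of the somites (25.1), Plcxd1 (22.4), Nat8l, which codes for the enzyme that makes N-acetylaspartate (22.3), Ankrd34b (22.3), A930033H14Rik (22.3) and Gm46608 (21.4). WT had no peak at these genes, and the nearest one was 9920 bp from the new peak of Dlx5 and 328310 bp from that of Slc34a2. The Dlx5 peak was 4304 bp wide (chromosome 6, 6877405 to 6881708) and was overlapped by RING1B peaks of both AhCre genotypes. At Tcf15 and Kank4 no RING1B peak was listed in KO and one was in WT. Villin WT crypts had an H2AK119ub1 peak at 5 of the 10 genes, Dlx5, Kank4, Tcf15, A930033H14Rik and Gm46608. Villin KO crypts also had one at 5, Dlx5, Slc34a2, Kank4, Tcf15 and Gm46608. The shares of all gained, all lost or all autosomal genes with a Villin-Cre peak were not computed.

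The strongest gains on X included Dlg3, a synaptic scaffold gene (38.2), Magee1 (36.1), Apln (30), Nhsl2 (26.1), Ap1s2 (24.2), Cited1, a transcriptional co-regulator gene (24.2), Arhgap6 (22.3), Chic1 (21.4) and Rtl5 (21.4). Of these genes, Ap1s2 alone had no H2AK119ub1 peak at its ends in Villin KO crypts, and Dlg3 alone had none in Villin WT crypts. These are the strongest gains: over all 1925 new X peaks, Villin KO peaks overlapped 4.73% and Villin WT peaks 6.13%. The shares of all gained X genes and of all X genes with a Villin-Cre peak were not computed. At Ap1s2 and Cited1 RING1B peaks were listed in both AhCre genotypes, and at the others named in neither.

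The strongest kept genes were Sfi1, a centrosome gene (196 in KO, 231 in WT), the Hoxa genes Hoxa3, Hoxa5, Hoxa6, Hoxa7, Hoxa9, Hoxa10 and Hoxa11, which share 1 peak (100 in KO, 84.6 in WT), Tmem189 (102 in KO, 75.6 in WT) and Nkx2-3, a homeobox gene of the gut mesenchyme and spleen (83.5 in KO, 75.6 in WT). The Hoxa peak was 53966 bp wide in KO and 62298 bp in WT. Pcgf6 itself had no H2AK119ub1 peak in either genotype, and KO had no PCGF6 peak at its ends where WT had one.

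Developmental transcription factor genes nearly all kept the mark, and several more were marked in KO. All 39 Hox genes were marked in both genotypes, with a higher KO score at 34 (87.2%), against 61.8% of all autosomal kept genes, but Hox genes share peaks. Of 123 other homeobox genes 104 were marked in KO and 95 in WT. Of those 95 genes 2 lost it, Six3 (10.5) and Vsx1 (10.1), both eye factors, which is 2.11%, against 12.8% of all autosomal genes with a WT peak. Of the 26 autosomal members without a WT peak 11 gained one (42.3%, against 3.57% of all such genes), among them Dlx5 (28.0), Six6 (20.5), Pax7 (15.3), Nkx2-2 (14.5), Hmx1 (12.9), Lmx1a (11.4), Irx2 (11.4), Lhx4 (10.7), Irx1 (10.7) and Isl1 (10.4). Cdx4 on X did so too (17.0). Of the 11 autosomal genes 5 had a WT peak within 10 kb, 2262 bp away at Pax7 and 1272 bp at Hmx1, and at Barx2 a WT peak of 32.6 was kept elsewhere but did not reach the gene end in KO. Kept members had a median score of 43.6 in KO and 35.8 in WT, against 21.8 and 19.9 for all autosomal kept genes. They were led by Nkx2-3, Shox2 (80.6 in KO, 64.7 in WT) and Dlx1 and Dlx2 (80.6 in KO, 62.0 in WT each). Stronger WT peaks were lost less often, as given above, and the part of peak strength in the low lost share was not tested.

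The forkhead, Sox, T-box, GATA and bHLH factors numbered 89 genes, of which 67 were marked in KO and 59 in WT. The loss was at Sox5 (11.4), which is 1.69% of the members with a WT peak, against 12.8% of all genes. Kept members had a median score of 36.1 in KO and 30.1 in WT, against 21.8 and 19.9 for all autosomal kept genes. The part of peak strength in the lost share was not tested. Of 28 autosomal members without a WT peak 8 gained one (28.6%, against 3.57% of all such genes), among them Tcf15 (25.1), Foxb1 (17.0), Neurog1 (15.2), Twist2 (13.7), Ascl4 (13.0), Sox14 (11.4) and Sox9 (11.3), with Sox3 on X (10.7) beside them. Tbr1 (74.2 in KO, 53.4 in WT), Tal1 (74.2, 52.2), Neurod2 (73.0, 52.2) and Foxd3 (60.6, 48.5) were the strongest kept members. Sox9 is a factor of crypt stem and Paneth cells, and its new peak of 456 bp lay 740 bp from a WT peak.

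**Figure D5:**
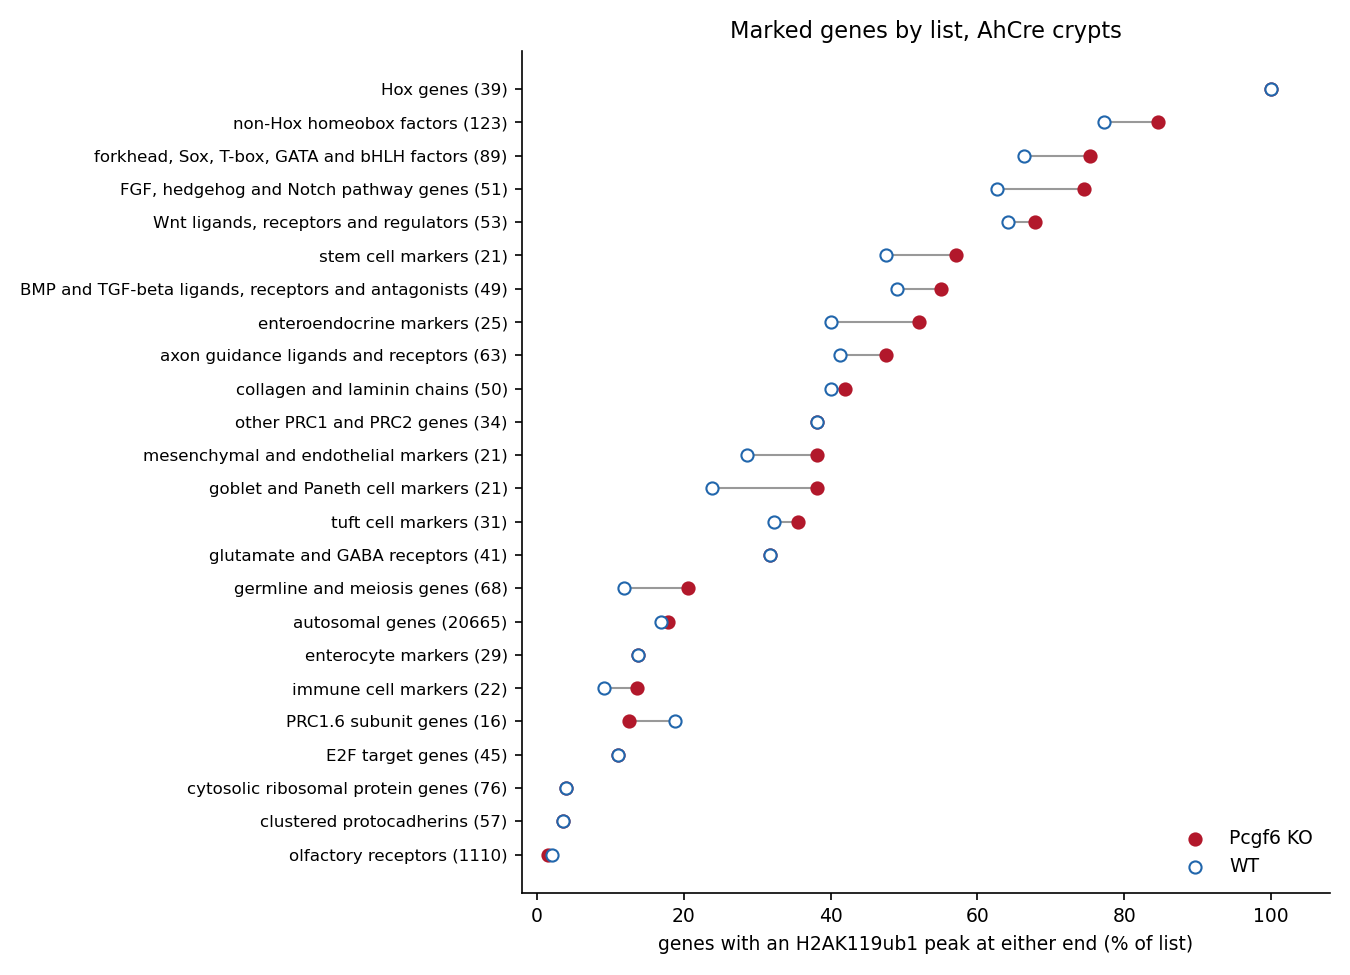
Share of the genes of each list (y axis, number of genes in brackets) that have an H2AK119ub1 peak within 1 kb of either end (x axis, percent), in Pcgf6 KO (filled red) and WT (open blue) AhCre crypts, with all autosomal genes beside them. The homeobox list stands at 84.6% in KO and 77.2% in WT, all autosomal genes at 17.9% and 16.9%. Shares of the lists include members on X, 3 in the homeobox list.

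Signalling genes were marked in a large share of cases, against 17.9% of all autosomal genes in KO and 16.9% in WT, and mostly kept. The marked numbers include members on X, 1 BMP and TGF-beta gene and 2 FGF, hedgehog and Notch genes. Losses were 1 of 34 Wnt, 1 of 24 BMP and TGF-beta and 1 of 32 FGF, hedgehog and Notch genes with a WT peak. These are 2.94, 4.17 and 3.12%, against 12.8% of all autosomal genes with a WT peak. Kept genes of these lists had median WT scores of 26.2, 22.2 and 24.2, against 19.9 for all autosomal kept genes. The part of peak strength in the lost shares was not tested. Autosomal gains were 2 of 19, 4 of 24 and 4 of 17 members without one (10.5, 16.7 and 23.5%), against 3.57% of all such genes. Of 53 Wnt genes 36 were marked in KO and 34 in WT. Those gained were Znrf3 (14.5) and Axin2 (12.2), a ligase and a scaffold that dampen Wnt signalling, and the ligand gene Wnt8a was lost (15.6). At the ligand gene Wnt2 (17.0) and the receptor gene Fzd8 (24.2) a shared peak reached the gene end in KO alone, and at Fzd1 in WT alone (26.2). Wnt10b (73.0 in KO, 53.8 in WT) and Wnt1 (59.6 in KO, 62.1 in WT) were kept. Of 49 BMP and TGF-beta genes 27 were marked in KO and 24 in WT, with gains at the ligand genes Bmp2 (12.8) and Gdf15 (12.2), the receptor gene Bmpr1b (12.2) and Fstl1 (11.5), and a loss at the decoy receptor gene Bambi (12.4). Of 51 FGF, hedgehog and Notch genes 38 were marked in KO and 32 in WT. Fgf10 (15.1), Fgf5 (13.7), the receptor gene Fgfr1 (14.4) and the Notch ligand gene Dll1 (11.4) were gained on the autosomes, Fgf16 (20.5) was gained on X, and Notch4 was lost (12.2). A shared peak reached Fgf23 (14.5) and the Notch ligand gene Dll4 (13.5) in KO alone.

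Axon guidance genes were marked in 30 of 63 cases in KO and 26 in WT. Nrp1 (17.3), Epha10 (15.5), Plxna4 (15.3) and Epha2 (10.1) were gained on the autosomes and Plxna3 (14.5) and Efnb1 (13.9) on X, while Efnb2 (10.6) and Sema3g (10.1) were lost. Of 41 glutamate and GABA receptor genes 13 were marked in each genotype, with Grm2 gained (16.8) and Grm6 lost (12.2). Of 50 collagen and laminin genes 21 were marked in KO and 20 in WT. Lamb1 (12.6) and Col18a1 (10.7) were gained, with Col4a6 (12.2) on X, and Lamc1 (21.2) and Col7a1 (13.0) were lost. Lost shares of axon guidance, receptor and collagen and laminin genes with a WT peak were 7.69, 7.69 and 10.0%, against 12.8% of all autosomal genes. The part of peak strength in these shares was not tested. Autosomal gains were 4 of 35, 1 of 26 and 2 of 28 members without a WT peak. These are 11.4, 3.85 and 7.14%, against 3.57% of all such genes.

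The genes for PRC1.6 itself mostly lacked the mark, with 2 of 16 marked in KO and 3 in WT. The DNA-binding subunit genes E2f6 (12.5) and Mga (11.8) lost it. These are 2 of only 3 members with a WT peak (66.7%), against 12.8% of all autosomal genes with one. E2f6 had a KO peak 1042 bp from the lost one. Ring1 kept it (11.3 in KO, 12.1 in WT). A shared peak reached Hdac1 in KO alone (16.3). Of 34 genes of other PRC1 forms and of PRC2, 13 were marked in each genotype. Bmi1 (50.8 in KO, 48.5 in WT) and Cbx8 (55.3 in KO, 42.6 in WT), which belong to canonical PRC1, kept it. Pcgf2, which codes for the canonical PCGF subunit MEL18, gained it (17.9), as did Bcorl1 on X (14.7). Pcgf5 (14.9) and Pcgf3 (11.1), which code for subunits of other variant forms, lost it. These losses are 2 of 13 members with a WT peak (15.4%), near the share of all autosomal genes. On the autosomes the gain is 1 of 18 members without a WT peak (5.56%), against 3.57% of all such genes.

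Germline and meiosis genes, the known targets of PRC1.6 in ESC, were marked in 14 of 68 cases in KO and 8 in WT. The KO-only genes were Meiob (14.5), Meioc (12.9), Syce2 (12.9), Tex15 (12.2) and Dazl (10.7), with Tex11 on X (12.2), and a shared peak reached Mei1 in KO alone (13.7). A WT PCGF6 peak lay at the ends of Meiob, Syce2 and Dazl, as it did at 41.8% of all autosomal genes and 39.1% of the gained ones. Dmc1, the meiotic recombinase gene, was marked in WT alone (14.1). The autosomal gains were 5 of 58 members without a WT peak (8.62%), against 3.57% of all such genes. Prdm1 (29.5 in KO, 25.9 in WT), Tdrd5 (26.7 in KO, 15.3 in WT), Stra8 (20.1 in KO, 19.8 in WT) and Ddx4 (17.9 in KO, 18.4 in WT) were kept.

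Of the genes that mark crypt cell types, 12 of 21 stem cell markers were marked in KO and 10 in WT. Lgr5, the receptor of crypt base stem cells, kept the mark (30 in KO, 24.2 in WT), as did Ascl2, the stem cell regulator (35.9 in KO, 22.6 in WT), and Ephb3 (18.7 in KO, 27.2 in WT). Znrf3, Axin2 and Sox9 were gained, as above, and Tert, the telomerase catalytic gene, was lost (15.3). These are 3 of 11 members without a WT peak (27.3%) and 1 of 10 with one (10.0%), against 3.57 and 12.8% of all genes. For goblet and Paneth cells 8 of 21 markers were marked in KO and 5 in WT. Atoh1, the secretory lineage factor, was kept (48.0 in KO, 35.8 in WT), Foxa3 and Nupr1 (13.7 each) were gained, and a shared peak reached Tff3 in KO alone (11.9). Of 25 enteroendocrine markers 13 were marked in KO and 10 in WT, with Rfx6 (14.5), Nkx2-2 (14.5) and Isl1 (10.4) gained and Insm1 (66.8 in KO, 52.2 in WT) and Pax6 (56.2 in KO, 48.5 in WT) kept. Of 31 tuft cell markers 11 were marked in KO and 10 in WT. There Spib (17.0), Sox9 and Alox5 (10.7) were gained, and Cd24a (13.2) and Gfi1b (12.2) were lost.

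Of 29 enterocyte markers 4 were marked in each genotype. Slc34a2 (26.1) and Alpi (12.2), the intestinal alkaline phosphatase gene, were gained, and the keratin genes Krt19 and Krt18 (13.0 each) were lost. Of 10 defining genes of crypt epithelium 2 were marked in each genotype, Lgr5 and Olfm4 (14.5 in KO, 12.5 in WT), while Cdx2, Cdx1, Vil1, Epcam, Krt8, Krt20, Cdh1 and Hnf4a carried no peak. Of 10 genes that define mesenchyme and endothelium 4 were marked in each, Vim, Pdgfra, Col1a1 and Des, and of 6 that define immune cells none was. In the longer lists, mesenchymal and endothelial markers were marked in 8 of 21 cases in KO and 6 in WT, with Myh11 gained (19.6) and Pdgfrb reached by a shared peak in KO alone (22.3), and immune markers in 3 of 22 cases in KO and 2 in WT, with Trem2 (16.2) and Csf1r (10.7) gained and Cd79b lost (11.4). Gains in these longer lists were 1 of 15 and 2 of 20 members without a WT peak (6.67 and 10.0%), against 3.57% of all such genes. Losses were 0 of 6 and 1 of 2 members with a WT peak, against 12.8% of all autosomal genes with one. A peak list of a mark gives no cell shares, and what other cells contributed was not tested.

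E2F target, ribosomal protein, protocadherin and olfactory receptor genes were rarely marked. Of 45 E2F target genes 5 were marked in each genotype, with Uhrf1 gained (12.9) and a WT peak that no longer reached Cdc45 (17.4). That gain is 1 of 39 autosomal members without a WT peak (2.56%), against 3.57% of all such genes. Of 76 cytosolic ribosomal protein genes 3 were marked in each, Rps15 (31.0 in KO, 24.2 in WT) and Rpl19 (21.4 in KO, 24.2 in WT) among them. Rpl23a was lost (15.4), which is 1 of the 3 with a WT peak (33.3%, against 12.8% of all autosomal genes with one). Of 57 clustered protocadherin genes 2 were marked in each and kept. Fewer olfactory receptor genes were marked in KO: of 1110 genes 16 were marked in KO and 22 in WT, 6 were lost (27.3% of the 22, against 12.8% of all autosomal genes) and Olfr1395 (10.6) was gained. Of the 15 kept, the KO score was higher at 2. The lost ones were Olfr328 (15.7), Olfr711 (14.1), Olfr461 (14.1), Olfr329 (12.2), Olfr533 (10.6) and Olfr279 (10.1). Olfr328 and Olfr329 lie between the chromosome 11 domains described above, and receptor genes of a cluster can share peaks, so they are not separate observations.

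The base composition of marked promoters differed by class. Among autosomal 300-base promoter windows, the 406 under a KO peak alone had a median of 17.0 CpG and the 288 under a WT peak alone 12.0 CpG. The 1273 under peaks of both had 17.0 and the 18096 under neither 13.0. At least 10 CpG were present in 74.1, 57.3, 72.6 and 56.5% of these classes. On X the 134 windows under a KO peak alone had a median of 14 CpG and the 823 under no peak 8.00. The E-box CACGTG, which reads the same on both strands, was found in 10.3% of KO-only, 10.1% of WT-only, 8.01% of shared and 7.79% of unmarked autosomal windows, and in 7.89% of all. The E2F motif GCGGGAA, searched on both strands, was found in 6.40, 7.64, 6.83 and 5.96% of these classes and in 6.05% of all. The exact intervals of both motifs overlapped between the KO-only and the WT-only windows. Of the 6 promoters printed above, that of Ethe1 holds the E2F motif and none holds the E-box.

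Among microRNA hairpins, 45 of 919 on the autosomes lay under peaks of both genotypes, 15 under KO peaks alone and 11 under WT peaks alone. Not all of these peaks were new or lost, because some met the other list outside the hairpin. Such kept peaks lay over Mir1199 (60.8), Mir1247 (32.0) and Mir1905 (29.0) in KO, and over Mir7018 (14.3) in WT, among others. On X 7 of 86 lay under KO peaks alone. Some hairpins of the X cluster and of the WT-only set are shown as mature sequences (RefSeq, GRCm38.p6), with the seed, bases 2 to 8, in capitals, because each lay under a peak of a single genotype. The hairpins of Mir322 and Mir503 each met a new KO peak of score 17.0, and their mature 5p arms lie at chrX:53054306-53054327 and chrX:53054027-53054049 (minus strand). The Mir148a hairpin lay under a WT peak (12.5) that no KO peak met, and its mature 3p arm lies at chr6:51269829-51269850 (minus strand).
mmu-miR-322-5p: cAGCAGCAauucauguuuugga
mmu-miR-503-5p: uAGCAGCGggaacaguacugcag
mmu-miR-148a-3p: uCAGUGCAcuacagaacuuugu
Of the hairpins within Hox clusters these were under peaks of both genotypes: Mir196b under the Hoxa peak (100 in KO, 84.6 in WT), Mir196a-1 (50.3 in KO, 31.7 in WT), Mir196a-2 (63.2 in KO, 60.9 in WT), Mir10a (37.1 in KO, 21.7 in WT) and Mir10b (30 in KO, 11.3 in WT). Of the 3 genes of miR-9, Mir9-1 (58.4 in KO, 50.7 in WT) and Mir9-3 (21.9 in KO, 14.1 in WT) were under peaks of both genotypes, and Mir9-2 was under a WT peak (18.4) that a KO peak met only outside the hairpin.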

How the data were processed

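Chromatin of crypts was profiled by ChIP-seq, 1 library a genotype. Per the submitters' processing notes the tools included MACS2 2.1.1 and Bowtie (1.2.2, 1.1.2), and the builds hg38, mm10 and dm6 are listed, with no role given. Per the labels a WT crypt input served for peak calling. Per the file headers, column names are absent: each deposited list gives position, peak name and the authors' −log10 value, which from the values is at least 10 and can be of a p-value or a q-value. Other settings are not given in the sources used here.

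The input samples were not used here. Lists were used as deposited, on chromosomes 1 to 19, X and Y, with starts made 1-based. Peaks were matched by at least 1 bp. Domains joined peaks with gaps of at most 2 kb and took the highest score. For genes, 21887 protein-coding entries of the RefSeq GRCm38.p6 (mm10) table were used, with a window of 1 kb around either end, and neighbours can share a peak. Transcription starts and 300-base promoters came from RefSeq. Shares have exact Clopper-Pearson 95% intervals. No test was run, since 1 library a side allows none, and the depth is unknown. Gene lists, members and rules were chosen with earlier results of these data known, and chromosome X was set apart after its peak number was seen. Of the list genes, 1 symbol had no match. Named were the 10 highest scores among lost, gained and kept genes (X separately, added after seeing the data), the 5 widest domains of each list, the 5 strongest unmatched peaks outside genes, list members that changed status, up to 4 kept ones, and Pcgf6; some genes that fall under this rule are not reported here. MicroRNAs and the 2 domain-splitting counts were added after seeing the data. Overlaps, domains and distances were checked against bedtools 2.31.1 in 6 comparisons with 0 differing, and 200 of 200 peaks removed from a copy were found. Alternatives covered the overlap rule, scores, list length, merging distance, gene window and chromosomes. The work used pandas 2.3.3, numpy 2.4.6, scipy 1.17.1 and matplotlib 3.10.9 under Python 3.11.15.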

Additional observations from a re-analysis of the deposited data

Results flagged for a closer look

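The ratio of KO to WT H2AK119ub1 peak number lay on opposite sides of 1 in the AhCre and the Villin-Cre lines, which is what set these values apart. Over all chromosomes it was 1.22 in AhCre and 0.883 in Villin-Cre crypts. On the autosomes it was 1.07 and 0.886. On chromosome X it was 67.2 and 0.766. Each genotype of each line had 1 library, so the difference between the lines was not tested.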

How the results depend on the processing

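Of 46 alternatives to the counts, shares and covered length, 31 stayed close and 15 moved further. Close means within 1.5 times the reported count or covered length, or within the interval of the reported share. A reversal was defined for the covered length alone, and there 0 reversed. No paired analysis was possible because each genotype had 1 library, and for the same reason none could be left out. Limiting both lists to scores of 15 or more left 2507 of 6625 KO peaks new (37.8%) and 1421 of 5420 WT peaks lost (26.2%). The reported shares over all chromosomes were 41.3 and 30.8%, so the counts fell more than the shares. At the same limit 1846 domains were new (37.9%) and 1043 lost (25.6%). Scores of 20 or more in both lists left 1218 new and 712 lost peaks (1129 and 712 on the autosomes, added after seeing the data), while scores of 20 or more in 1 list against the whole other list left 174 new and 57 lost. Autosomal lists of equal length, also added, gave 4090 new peaks, against 4325 lost. Scores of 15 or more in 1 list, also added later, left 182 gained and 63 lost genes. Within 2 kb, a WT RING1B peak lay at 6.01% of lost peaks (2.98% at 1 bp) and a WT PCGF6 peak at 22.8% (11.6%). The order of new over lost counts thus depended on list length: at equal length over all chromosomes there were 4642 new and 4798 lost peaks. The covered length, KO over WT, stayed between 1.01 and 1.13. The counts are limited by an unknown depth, a lowest score of 10 and 1 library a genotype.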
